A study of Homo sapiens with 4 samples.

Results

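The ubiquitin-specific proteases (USPs) were followed through a pooled CRISPR-Cas9 knockout screen for resistance to HQ461. Members were taken by gene symbol alone, as USP followed by a number and at most 1 letter, with USP22 and the USP17 copies left out, a rule that uses no measured value. The rule gave 50 of 19112 targeted genes and 200 of 77441 sgRNAs, with 4 sgRNAs per member. Cells of both groups were A549, a human lung adenocarcinoma line of alveolar basal epithelial type, which carried the Brunello library after lentiviral infection and 1 week of puromycin selection. The HQ461 group was then kept in 4 µM HQ461, a cytotoxic small molecule of the molecular glue type, which acts by bringing proteins together, for 3 weeks. The DMSO group was kept in the vehicle at 0.1% by volume for the same time. The labels list 2 biological replicates per group, but the sgRNA count table has 1 pooled column per group, so no difference below has a replicate check and none carries a p-value. The screen reads sgRNAs from genomic DNA and measures no expression, so the cell line could not be checked against markers.

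Ubiquitin is attached to proteins by ligases and taken off again by deubiquitinases, of which the USPs are the largest human family. They are cysteine proteases that cut the bond between ubiquitin and a substrate or between ubiquitins of a chain, and individual members work at the proteasome, on histones, at endosomes, on mitochondria and in DNA repair. sgRNA reads show how cells with a knockout grew relative to the rest of the same pool. A member whose knockout helps this relative growth more in HQ461 than in DMSO would show a larger share of reads with HQ461. A member whose knockout costs more relative growth in HQ461 would show a smaller share.

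The HQ461 column held 16127620 counts and the DMSO column 14428845, of which 49336 and 36185 fell on USP sgRNAs. Counts were divided by size factors of 0.833 for HQ461 and 1.20 for DMSO, 1 was added, and the value of a gene is the median over its sgRNAs of the log2 fold change, HQ461 over DMSO. A gene is called raised or lowered here at 2-fold, a value of at least 1 or at most -1. The library also carries control sgRNAs without a target gene, whose values had an SD of 0.87 across 997 sgRNAs, with 1st and 99th percentiles of -1.67 and 2.92, both beyond the 2-fold used for calls. These controls had a median of 368 counts with HQ461 and 525 with DMSO, against 105 and 153 for USP sgRNAs, so their spread is that of better counted sgRNAs.

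The family as a whole stood where the average gene stood. Its median value was 0.04, against -0.02 over the 19111 genes with counts, and the SD across genes was 0.83, against 0.80. Of the 50 members 8 (16.0%) were raised, where 9.01% of all genes were, and 6 (12.0%) were lowered, where 7.69% of all genes were. The raised members were USP9X, USP15, USP3, USP36, USP19, USP16, USP35 and USP32. The lowered members were USP14, USP46, USP8, USP33, USP1 and USP54. Scaled by total counts instead, which moves the median of all genes by -0.68, the family median was -0.64 and 2 members (USP9X and USP15) were raised and 17 lowered, where 2.72% and 32.1% of all genes were, so directions are relative to the median sgRNA.

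sgRNAs of the same member often disagreed. The range over the 4 sgRNAs of a member had a median of 2.13 log2 units, against 2.14 for genes of the library, and ran from 0.40 for USP30 to 6.27 for USP24. In 40 members the sgRNAs lay on both sides of 0. All 4 were above 0 in 6 members (12.0%, against 10.1% of all genes), namely USP3, USP9X, USP32, USP36, USP43 and USP51. All 4 were below 0 in 4 members (8.00%, against 8.88% of all genes), namely USP14, USP30, USP53 and USP54. At least 3 sgRNAs were raised 2-fold in 7 members (14%, against 5.20% of all genes), which are the raised members other than USP35. At least 3 were lowered 2-fold in 2 members, USP14 and USP46 (4.00%, against 3.74% of all genes). Most neighbours in the order of gene values therefore differed by less than the spread of their own sgRNAs.

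**Figure D1:**
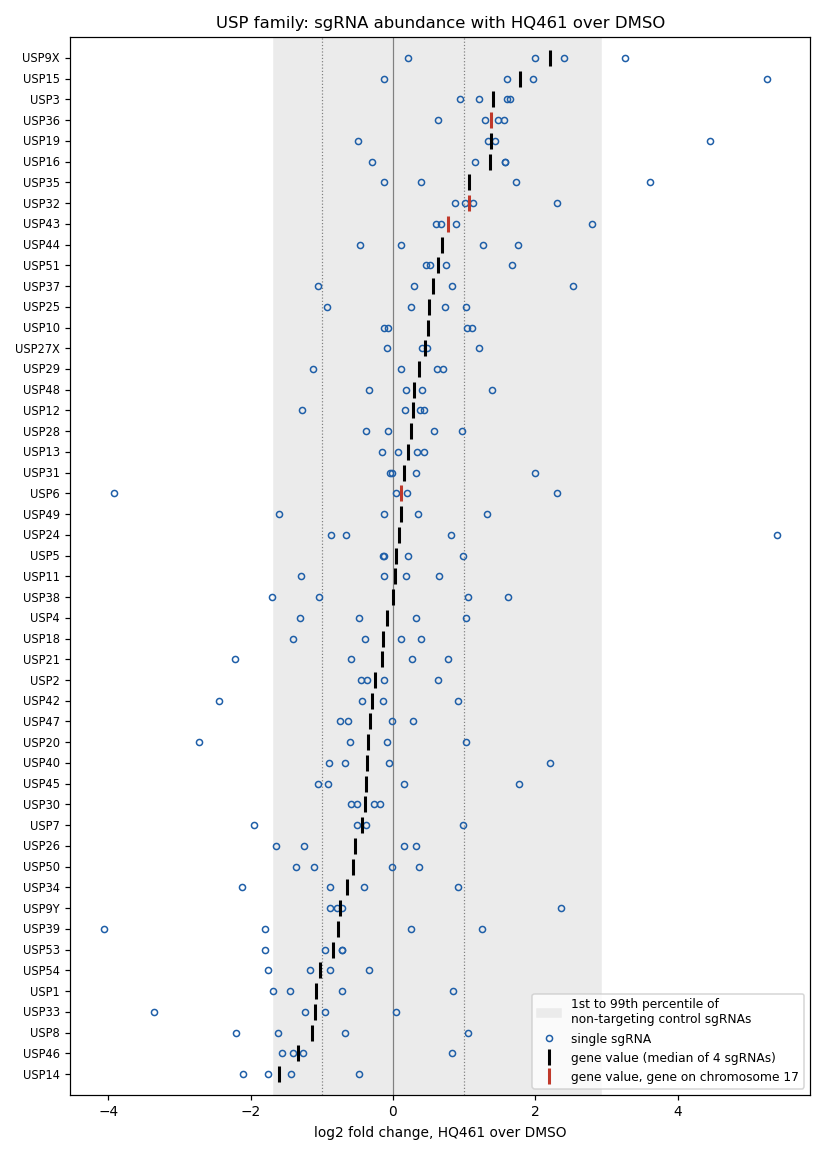
Log2 fold change, HQ461 over DMSO (x axis), for the 4 sgRNAs of each of the 50 USP genes (circles, 1 gene per row, highest value at the top) and for the gene value (bars, red for chromosome 17). The grey band spans the 1st to 99th percentile of control sgRNAs, -1.67 to 2.92, and dotted lines mark 2-fold; most rows cross 0, while USP3 and USP14 lie on 1 side of it.

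USP14, which docks on the regulatory particle of the proteasome and trims ubiquitin chains there, had the lowest value of the family. Its sgRNAs had 44, 60, 70 and 190 counts with HQ461, against 277, 296, 274 and 381 with DMSO in the same order. Each sgRNA was lower with HQ461, at log2 fold changes of -2.11, -1.76, -1.43 and -0.47. The summed counts were 364 with HQ461 (95% exact Poisson interval 328 to 403) and 1228 with DMSO (1160 to 1300), where such intervals cover counting error only, since PCR reads are not independent molecules. The gene value of -1.60, a 3.02-fold difference, was undercut by 1.99% of all genes. USP14 passed 2-fold downwards under all 13 alternative settings, at values from -2.28 to -1.23. It lies at chr18:158383-214629 (GRCh38), where 20 other genes within 5 Mb had a median of -0.08.

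USP5 and USP13, which take apart ubiquitin chains that are attached to no substrate, had values close to 0. The USP5 sgRNAs had 284, 265, 53 and 111 counts with HQ461, against 452, 416, 66 and 80 with DMSO, a gene value of 0.04. Those of USP13 had 252, 159, 240 and 300 with HQ461, against 404, 218, 273 and 319 with DMSO, a value of 0.21. No sgRNA of either gene passed 2-fold, and the difference between USP14 and USP13 was larger than the sgRNA range of either.

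USP1, USP12 and USP46 are all switched on by the WD-repeat protein UAF1 (gene WDR48), and USP1 is known for removing ubiquitin from FANCD2 and PCNA in DNA repair. The USP46 sgRNAs had 14, 68, 14 and 65 counts with HQ461, against 62, 262, 50 and 52 with DMSO, a gene value of -1.33. The USP1 sgRNAs had 8, 32, 14 and 146 counts with HQ461, against 40, 128, 34 and 116 with DMSO, a gene value of -1.08. In both genes 3 sgRNAs were lower with HQ461 and the fourth was higher, at 0.83 for USP46 and 0.85 for USP1. The USP46 call was lost with the mean over sgRNAs (-0.85) and with summed counts (-0.87). The summed counts of USP1, 200 with HQ461 (173 to 230) and 318 with DMSO (284 to 355), give a ratio of -0.14 on the log2 scale (exact interval -0.40 to 0.12), so its call rests on the median. USP12, the close paralog of USP46, had a value of 0.28 with sgRNAs from -1.28 to 0.43. Among the UAF1 genes, WDR48 had a value of 0.34 with sgRNAs from -3.84 to 2.47, WDR20 had 0.71 and DMWD had 0.33, and none passed 2-fold.

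USP8, which acts on endosomes to spare receptors from degradation, was lowered at few counts. Its sgRNAs had 6, 32, 8 and 11 counts with HQ461, against 44, 144, 19 and 7 with DMSO, a gene value of -1.14. The value was -1.91 when sgRNAs under 30 normalized counts with DMSO were left out, but -0.86 as the mean over sgRNAs and -0.67 without the most lowered sgRNA, both short of 2-fold. USP50 overlaps USP8 on chromosome 15 (50494018 to 50546708 for USP50 and 50424380 to 50514421 for USP8) and had a value of -0.56, with sgRNAs from -1.36 to 0.36. USP33, a deubiquitinase of signalling receptors, had sgRNAs with 10, 61, 159 and 144 counts with HQ461, against 159, 209, 446 and 200 with DMSO, a value of -1.10. Its lowest sgRNA, at -3.36, lay under the 1st percentile of the controls, and its highest stood at 0.05. Without the lowest the value was -0.96, short of 2-fold. USP20, the paralog of USP33, had a value of -0.35, with sgRNAs from -2.73 to 1.03. Of the other members of this role, USP2, which also stabilises MDM2, had -0.25 and USP18, which removes the ubiquitin-like protein ISG15, had -0.14, and no sgRNA of USP2 passed 2-fold. USP32 and USP6, of the same role, had 1.07 and 0.12 and are described with chromosome 17. Of the 7 members of the role 1 (14.3%) was raised and 2 (28.6%) were lowered, where 9.01% and 7.69% of all genes were.

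USP3 and USP16, which remove ubiquitin from histone H2A, were the raised members among the 8 that act on chromatin (25.0%, against 9.01% of all genes). The USP3 sgRNAs had 149, 302, 166 and 65 counts with HQ461, against 111, 188, 78 and 29 with DMSO. They lay close together, at 0.94, 1.21, 1.60 and 1.65, for a gene value of 1.40. The USP16 sgRNAs had 120, 178, 324 and 191 counts with HQ461, against 213, 114, 157 and 91 with DMSO, and 3 of the 4 were raised 2-fold, for a gene value of 1.36. The summed counts were 682 with HQ461 (632 to 735) and 406 with DMSO (367 to 447) for USP3, and 813 (758 to 871) and 575 (529 to 624) for USP16. Neither gene had an sgRNA above the 99th percentile of the controls. USP45, the paralog of USP16, had a value of -0.38 with sgRNAs from -1.05 to 1.77.

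USP27X and USP51 can take the place of USP22 in deubiquitinase modules built on ATXN7L3 and ENY2. USP51 had 367, 103, 160 and 321 counts with HQ461, against 385, 103, 138 and 144 with DMSO, a gene value of 0.63 with every sgRNA above 0. USP27X had 234, 121, 311 and 1077 counts with HQ461, against 360, 131, 320 and 669 with DMSO, a value of 0.45. Both lie on the X chromosome among genes with medians of 0.43 (56 genes near USP51) and 0.37 (112 genes near USP27X), so neither stood out from its surroundings. ATXN7L3 itself had 332, 832, 378 and 719 counts with HQ461, against 74, 177, 58 and 70 with DMSO, a gene value of 2.98, and ENY2 had -0.98 with sgRNAs from -5.62 to 0.44. The other chromatin members, USP7, USP21, USP44 and USP49, had values of -0.44, -0.16, 0.69 and 0.11.

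USP15, a deubiquitinase that associates with the COP9 signalosome, had the second highest value. Its sgRNAs had 212, 128, 184 and 5206 counts with HQ461, against 335, 60, 67 and 196 with DMSO. The sgRNA with 5206 counts held 90.9% of the HQ461 counts of the gene and was its only sgRNA above the 99th percentile of the controls, at 5.25. Without it the gene value was 1.60 in place of 1.78, so the call did not need it. USP4 and USP11, which share the domain layout of USP15, had values of -0.08 and 0.03, with sgRNAs from -1.31 to 1.03 and from -1.29 to 0.65. The coding sequence of USP15 was 62.2% identical to that of USP4 and 57.4% identical to that of USP11 over aligned bases, with no Cas9 site (20 bases before NGG) in common.

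**Figure D2:**
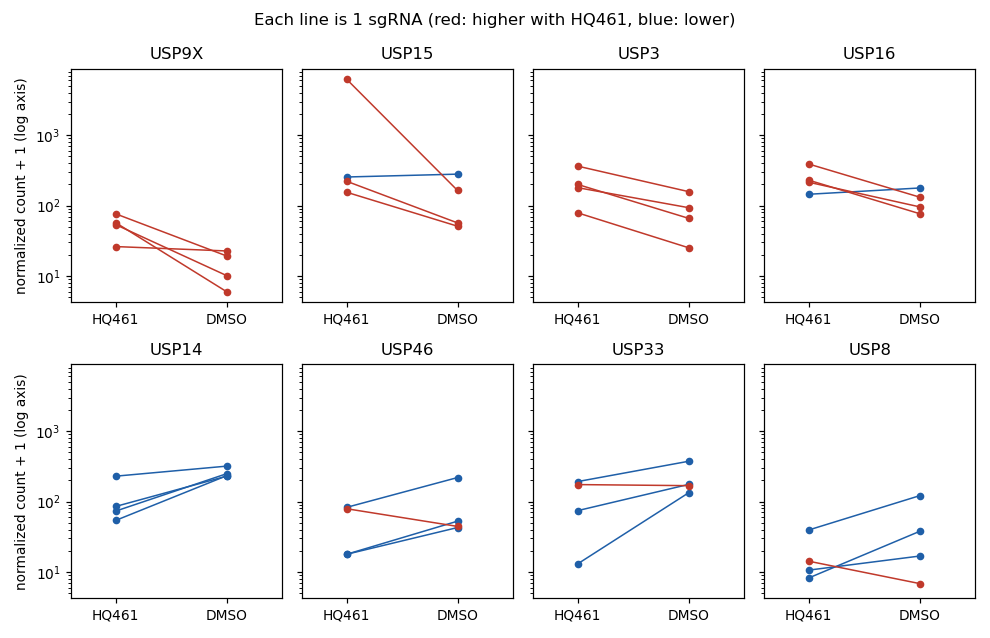
Normalized count + 1 on a log axis with HQ461 (left) and DMSO (right) for each sgRNA of 4 raised genes (top row) and 4 lowered genes (bottom row), 1 line per sgRNA, red where HQ461 is higher and blue where it is lower. All USP3 and USP9X lines are red and all USP14 lines are blue, while USP15, USP16, USP46, USP33 and USP8 each have 1 line that runs the other way.

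USP9X, a very large X-linked deubiquitinase with a role in cell growth and trafficking, had the highest value of the family and the lowest level with DMSO. Its sgRNAs had 21, 63, 44 and 47 counts with HQ461, against 26, 22, 11 and 6 with DMSO, at log2 fold changes of 0.21, 1.99, 2.40 and 3.26. The gene value was 2.20, or 4.58-fold, at the 99th percentile of all genes. The summed counts were 175 with HQ461 (150 to 203) and 65 with DMSO (50.2 to 82.8), and the ratio of sums was 1.96 on the log2 scale (1.54 to 2.39). No USP9X sgRNA reached 30 normalized counts with DMSO, so a minimum of that size leaves the gene without a value. Under the 12 alternatives that kept it the value ran from 1.54 to 2.40.

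USP9Y, its counterpart on the Y chromosome, had a far higher level with DMSO and no raised gene value. Its sgRNAs had 145, 144, 142 and 1444 counts with HQ461, against 386, 356, 336 and 405 with DMSO. Of the 4, 3 lay within -0.88 to -0.71 and the fourth at 2.36, for a gene value of -0.74. The fourth held 77.0% of the HQ461 counts, and the ratio of summed counts was 0.87 (0.77 to 0.96), so the direction of USP9Y turns with the way its sgRNAs are combined. The median normalized count with DMSO was 13.7 for USP9X, at the 2.14 percentile of all genes, and 309 for USP9Y, at the 95.7 percentile. The coding sequences of the pair were 89.8% identical over 7659 aligned bases, and 62 of the 659 Cas9 sites of USP9X occur letter for letter in USP9Y. The first 60 coding bases are shown as an example of where the pair differs, and capitals mark the 9 bases that differ. The sequences are those of the plus strand of GRCh38 at chrX:41123629-41123688 and chrY:12709448-12709507.
USP9X: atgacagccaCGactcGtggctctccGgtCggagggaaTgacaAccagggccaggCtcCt
USP9Y: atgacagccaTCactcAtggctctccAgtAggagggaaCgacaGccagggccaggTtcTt

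USP24 and USP34, the other very large members, did not pass 2-fold. USP24 had 0, 73, 156 and 4811 counts with HQ461, against 1, 167, 127 and 164 with DMSO, so 1 sgRNA held 95.5% of the HQ461 counts while the gene value was 0.08. That sgRNA, at 5.39, had the highest log2 fold change of all USP sgRNAs. USP34 had a value of -0.64, with sgRNAs from -2.12 to 0.91. Of the 200 USP sgRNAs, 5 (2.50%) exceeded the 99th percentile of the controls, where 2.44% of all targeting sgRNAs did, and they belonged to USP9X, USP15, USP19, USP24 and USP35. Below the 1st percentile lay 16 (8.00%), where 7.53% of all targeting sgRNAs did.

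USP19, an endoplasmic reticulum deubiquitinase, had 88, 235, 958 and 3020 counts with HQ461, against 179, 134, 508 and 197 with DMSO. The value was 1.38, and without the sgRNA of 3020 counts it was 1.33. USP4 lies beside USP19 on chromosome 3 (49277144 to 49340712 for USP4 and 49108046 to 49120938 for USP19) and had a value of -0.08, and the 194 other genes within 5 Mb of USP19 had a median of -0.13. USP30, the deubiquitinase of the mitochondrial outer membrane, had the most even sgRNAs of the family. They had 45, 139, 155 and 80 counts with HQ461, against 98, 286, 269 and 131 with DMSO, and all lay within -0.59 to -0.18.

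Of the 9 members with roles around MYC and genome stability, 1 (11.1%) was raised, near the 9.01% of all genes, and none of these 9 was lowered. USP36, a nucleolar deubiquitinase known for stabilising MYC, had 20, 37, 309 and 556 counts with HQ461, against 18, 21, 160 and 270 with DMSO, for sgRNAs at 0.64, 1.30, 1.47 and 1.56 and a gene value of 1.38. The others ran from -0.38 for USP45 to 0.56 for USP37, which acts on cyclin A. USP25 and USP28, a pair of paralogs, had values of 0.50 and 0.25, and USP10 had 0.49.

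The 4 members whose catalytic domain is divergent or was long held to be inactive all had values below 0. Of the 19111 genes with counts, 9810 were below 0. Among the 4 members 1 (25.0%) was lowered, where 7.69% of all genes were. USP54 had 49, 25, 31 and 43 counts with HQ461, against 242, 82, 84 and 79 with DMSO, a value of -1.03 with every sgRNA below 0. It passed 2-fold under 9 of 13 alternatives and was -0.99 with control scaling, -0.95 with a pseudocount of 5, -0.89 without the most lowered sgRNA and -0.75 after neighbours were subtracted. USP53 had 2, 41, 201 and 53 with HQ461, against 13, 115, 479 and 126 with DMSO, a value of -0.84, again with every sgRNA below 0. USP39, a splicing factor, had a value of -0.77 with sgRNAs spread from -4.06 to 1.25, and USP50 had -0.56. With 4 genes and no replicate this is a description of these columns.

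The 4 members on chromosome 17 all had values above 0 at the main setting, on a chromosome whose genes were high in general. The 1118 genes placed there had a median of 0.98 and 49.6% of them were raised, against a median of -0.06 and 6.44% for the 17781 genes placed elsewhere. USP32, USP36, USP43 and USP6 lie on it and had values of 1.07, 1.38, 0.77 and 0.12. The other genes within 5 Mb had medians of 1.07 around USP32, 0.65 around USP36, 0.89 around USP43 and 0.79 around USP6. USP32 thus equalled its neighbours to 2 decimals, USP36 stood 0.74 above its own, and USP6 had a difference of -0.68 from its own. Without the members of chromosome 17 the family had 6 raised (13.0%) and 6 lowered (13.0%) of 46, where 6.44% and 8.07% of genes placed elsewhere were.

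USP6 and USP32 are closely related in sequence, as 177 of the 619 Cas9 sites of the USP6 coding sequence also occur in USP32. USP6 had 0, 185, 219 and 695 counts with HQ461, against 17, 260, 275 and 203 with DMSO. The sgRNA at 0 counts was 3.93-fold lower with HQ461 when 3 counts, the limit that a count of 0 allows, stood in for the 0. That figure takes the 17 counts with DMSO as exact. The sgRNA with 695 counts stood at 2.30. USP32 had 380, 97, 443 and 144 counts with HQ461, against 300, 69, 292 and 41 with DMSO, all above 0. USP43 had 228, 584, 772 and 2820 with HQ461, against 217, 529, 606 and 581 with DMSO, and was the best counted member with DMSO, at a median of 462 normalized counts.

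On the long arm of chromosome 11 the members differed. USP35 (78188812 to 78215232) had 199, 272, 693 and 1714 counts with HQ461, against 314, 296, 300 and 201 with DMSO, a gene value of 1.07 that was 0.40 without its most raised sgRNA. Genes within 5 Mb of it had a median of 0.27. USP28 and USP2, further out on the arm, had values of 0.25 and -0.25 beside neighbours at 0.13 and 0.16. When the neighbour median was subtracted from every member, 5 were raised, namely USP9X, USP15, USP3, USP19 and USP16, and 3 were lowered, namely USP14, USP46 and USP8, where 6.46% of the 18899 placed genes were raised and 6.75% lowered in the same way.

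**Figure D3:**
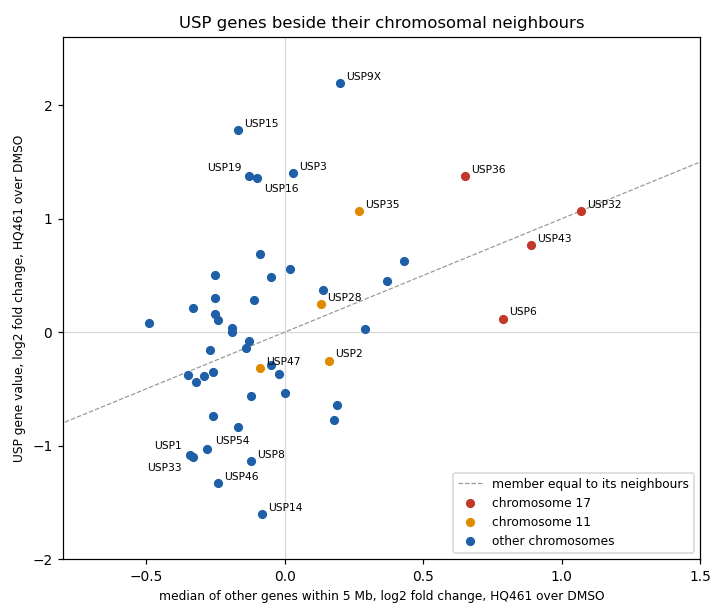
Value of each USP gene (y axis) against the median value of other genes within 5 Mb (x axis), both as log2 fold change, HQ461 over DMSO. The 4 genes of chromosome 17 lie to the right, with neighbour medians from 0.65 to 1.07, while USP9X, USP15, USP3, USP19 and USP16 lie high and USP14, USP46 and USP8 low beside neighbours between -0.24 and 0.20.

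The level with DMSO ran from 13.7 normalized counts for USP9X to 462 for USP43, with a median of 137 against 130 for all genes. Counts of the starting library were not analysed here, so the level before treatment is unknown. The 3 members under 30 counts were USP9X, USP7 (22.1) and USP8 (26.2), a share of 6% where 5.26% of all genes were that low. USP7, which stabilises MDM2, had 1, 10, 41 and 45 counts with HQ461, against 9, 21, 77 and 32 with DMSO, and its value of -0.44 spans sgRNAs from -1.95 to 0.99. USP39 followed at 35.0 counts. Of the lowered members, USP14 (239) and USP33 (170) were above the family median with DMSO, and USP46 (47.5), USP1 (65.0), USP54 (69.1) and USP8 were below it.

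**Figure D4:**
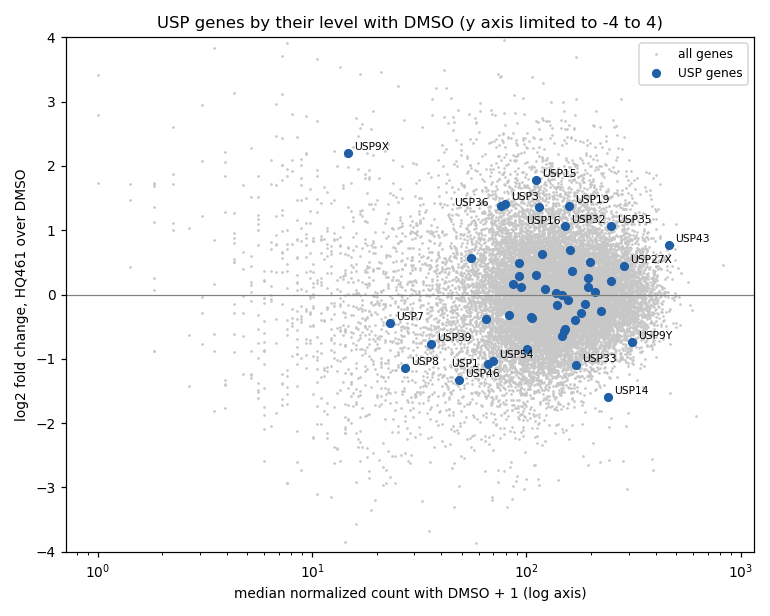
Gene value, log2 fold change HQ461 over DMSO (y axis), against the median normalized count with DMSO + 1 on a log axis, for the 50 USP genes (blue) over all genes (grey). USP9X has the highest value at 13.7 counts, in a region where genes scatter widely, while USP14 has the lowest at 239 counts.

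Genes listed by deubiquitinase family without a USP number, called other deubiquitinases below, lay on both sides of 0. The 22 genes leave out the OTU family but hold 3 listed as USP-like, CYLD, USPL1 and PAN2, at -0.86, -0.5 and -0.3. The list goes by protein family, so not every gene on it, such as PAN2, USPL1 or COPS5, need encode an enzyme that removes ubiquitin. Of the 22 genes, 2 (9.09%) were raised and 1 (4.55%) was lowered, against 9.01% and 7.69% of all genes. Their median was -0.39, against -0.02 for all genes, with the 3 USP-like genes included. UCHL3, a ubiquitin hydrolase, had 145, 302, 147 and 443 counts with HQ461, against 140, 226, 71 and 129 with DMSO, a value of 1.25 with every sgRNA above 0. JOSD2, of the Josephin family, had a value of 1.13 with sgRNAs from -1.25 to 2.17. BAP1, which acts on histone H2A as USP3 and USP16 do, had 6, 2, 47 and 27 counts with HQ461, against 36, 13, 130 and 34 with DMSO, a value of -1.36. UCHL5, which like USP14 binds the proteasome, had -0.22, and PSMD14, the deubiquitinase built into the proteasome, had -0.49.

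Of 21 partners and substrates of USPs, 2 (9.52%) were raised, near the 9.01% of all genes. They were ATXN7L3 and BECN1, at 2.98 and 1.60, and both lie on chromosome 17. MDM2, a ubiquitin ligase, was lowered at a value of -1.07. Its sgRNAs had 1, 8, 90 and 1 counts with HQ461, against 7, 37, 192 and 0 with DMSO. The best counted sgRNA, at 90 against 192, stood at -0.56, short of 2-fold, and the others had few counts.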

How the data were processed

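Read counts per sgRNA were deposited by the authors without normalization, made from sequencing reads with the count command of MAGeCK 0.5.9.2 per the labels and the study's methods. Both replicates of a condition share 1 column. The way of pooling them is not stated in the labels or methods. No test between conditions was therefore possible, and values are compared with all genes. sgRNAs are listed by number and their sequences were not used here.

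Python 3.11.15, numpy 2.4.6, pandas 2.3.3 and scipy 1.17.1 were used. The 273 sgRNAs without a read in either condition were removed, and median ratios gave the size factors. sgRNA and gene values on the log2 scale used a pseudocount of 1 unless another is named. Ratios of summed counts that are printed with an interval used none. Steps were tested on simulated data with 200 changed genes, in which all sgRNAs of a gene changed by the same true fold. The simulation thus checked the arithmetic and not the calls made here. Positions came from GENCODE 44 on GRCh38, the build in the submitters' processing notes (17949 genes by symbol, 951 by an older symbol, 212 not placed). Coding sequences of its canonical transcripts were aligned pairwise.

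Members, gene lists, 2-fold calls and named genes (calls, extremes, chromosomes 17 and 11q, paralogs, USP14, and partners past 2-fold) were chosen with earlier results of these data known. USP6 with USP32 was compared after their values were seen, and USP7, USP10, USP18, USP21, USP24, USP30, USP34, USP37, USP39, USP44, USP49, USP50, USP53, WDR48, WDR20, DMWD, ENY2, UCHL5 and PSMD14 were named on the same footing. Alternatives were 3 other scalings (total counts, control sgRNAs, and TMM computed in edgeR 4.0.16), a minimum of 30 normalized counts with DMSO, keeping empty sgRNAs, pseudocounts of 0.5 and 5, and other gene summaries. The values of 1 USP partner gene are not reported here.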

Additional observations from a re-analysis of the deposited data

How the results depend on the processing

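The family median of 0.04 became -0.64 with total counts, 0.01 with TMM, 0.08 with control sgRNAs, -0.01 with the mean over sgRNAs, -0.25 without the most raised sgRNA, 0.30 without the most lowered one, 0.25 with summed counts, -0.04 without chromosome 17 and 0.02 after neighbours were subtracted. Relative to all genes it lay between -0.02 and 0.07 throughout. Total counts gave 2 raised and 17 lowered members (1 and 10 by 3 or more sgRNAs), 0 and 11 of the other deubiquitinases and 1 and 9 of the partners. At that scaling 2.72% of all genes were raised and 32.1% lowered. Without the most raised sgRNA, 7 members were raised and 10 lowered, where 5.21% and 17.4% of all genes were. Other deubiquitinases then numbered 0 raised and 8 lowered, and lowered partners 7. Without the most lowered sgRNA, 11 members were raised and 2 lowered, where 18.2% and 3.84% of all genes were. Other deubiquitinases then numbered 4 raised and 0 lowered, and partners 5 raised and 1 lowered. Summed counts gave 12 raised and 3 lowered members, where 18.1% and 3.68% of all genes were, and 4 raised and 0 lowered other deubiquitinases. The minimum of 30 counts left 4 members with 3 or more raised sgRNAs, where sgRNAs are fewer. Control scaling gave 4 raised other deubiquitinases. A pseudocount of 5 gave 0 lowered other deubiquitinases and 1 lowered partner. Leaving out chromosome 17 left 0 raised partners and 1 lowered. Subtracting neighbours left 5 raised and 3 lowered members, where 6.46% and 6.75% of placed genes were. The last 2 settings were chosen after seeing the data. No called member took the opposite sign, though USP32 came to -0.00 after neighbours were subtracted. USP14 and USP15 passed 2-fold under all 13 alternatives, and USP1 under 8.

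No paired analysis was possible because HQ461 and DMSO replicates come pooled. Leaving out a replicate and the replicate block were not run for the same reason. Counts under 30 with DMSO, in 24 USP sgRNAs, limit what can be seen, for USP9X, USP7 and USP8 above all.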
